A study of Mus musculus with 9 samples.

Results

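The genes whose symbols start with Nduf encode the nuclear-encoded subunits and the assembly factors of mitochondrial complex I, the NADH dehydrogenase of the respiratory chain. All genes with that symbol start were taken from the probe sets annotated with a single gene symbol, and each gene was represented by its brightest probe set, by mean log2 intensity over the arrays. The rule gave 44 genes of 18193, and all 44 were among the 12652 genes with enough signal to be tested. By textbook position they fell into 34 complex I subunits, 8 assembly factors (Ndufaf genes) and a pair, Ndufa4 and Ndufa4l2, that carries the name but was set apart because Ndufa4 is now known as a subunit of complex IV. Ndufs6 and Ndufa11 had no probe set with their symbol alone and are not analysed here.

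RNA came from CD45.1+ LKS+ bone marrow cells sorted from C57BL/6 mice, aged 8 weeks per the labels. LKS+ cells lack lineage markers, carry Kit and Sca-1 and hold the blood stem and early progenitor cells; the labels present them as normal cells taken from leukemic or control animals. Mice at day 14 of acute myeloid leukemia, mice at day 7 of leukemia and control mice gave 3 arrays each. The series asks how these normal cells differ over the stages of the leukemia. The labels give neither the leukemia's origin nor a time for the control mice, so elapsed time and leukemia cannot be told apart, and they call the replicates biological without saying how many animals each held. The p-values measure the spread between these arrays.

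Complex I takes electrons from NADH, passes them along iron-sulfur clusters to ubiquinone and pumps protons across the inner mitochondrial membrane. Its matrix arm holds the N module, which oxidises NADH, and the Q module, which reduces ubiquinone; its membrane arm, split here into a proximal and a distal part, pumps protons. A set of conserved core subunits does the chemistry, accessory subunits surround them, and assembly factors build the complex but are absent from its mature form. The core subunits of the membrane arm are encoded by mitochondrial DNA. Blood stem cells are known to rely comparatively little on respiration while quiescent and to raise it as they divide and differentiate.

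The start regions of these genes are known targets of the transcription factors NRF1, GABP, YY1 and ESRRA, so the promoters of some members, chosen as given below, are shown. RefSeq promoter windows of mouse build GRCm38.p6, 250 bases before to 50 bases after the annotated start, were found for 39 of the 44 genes. Of the genes printed, Ndufa5 had 2 windows, and a window was picked by the number of matches in the printed stretch. In the windows below, which end at the base before the start and are written 5′ to 3′ on the gene's strand, capitals mark the letters GCGCANGCG (NRF1) or CCGGAAG (GABP) on either strand. Ndufaf1 and Ndufa5 had the largest differences at day 14, Ndufs5, Ndufs3 and Ndufb7 are further subunits with a match in the printed stretch, and Ndufb11 is a subunit that did not pass the test at day 14. Ndufa6 and Ndufb4, which did not pass either, held the NRF1 letters in their windows and are not printed.
Ndufaf1, chr2:119662835-119662984, minus strand: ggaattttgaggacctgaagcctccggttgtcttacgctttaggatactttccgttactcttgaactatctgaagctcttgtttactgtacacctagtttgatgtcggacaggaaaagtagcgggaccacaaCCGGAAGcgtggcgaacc
Ndufa5, chr6:24527691-24527840, minus strand: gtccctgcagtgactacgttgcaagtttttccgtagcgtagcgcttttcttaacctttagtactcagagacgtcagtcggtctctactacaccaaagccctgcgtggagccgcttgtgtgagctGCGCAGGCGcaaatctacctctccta
Ndufs5, chr4:123718187-123718336, minus strand: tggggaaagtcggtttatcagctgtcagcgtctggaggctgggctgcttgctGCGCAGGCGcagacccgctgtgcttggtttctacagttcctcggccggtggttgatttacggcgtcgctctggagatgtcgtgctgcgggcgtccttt
Ndufs3, chr2:90904722-90904871, minus strand: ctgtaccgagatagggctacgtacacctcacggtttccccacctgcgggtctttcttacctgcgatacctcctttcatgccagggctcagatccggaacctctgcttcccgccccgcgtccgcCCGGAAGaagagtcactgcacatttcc
Ndufb7, chr8:83566608-83566757, plus strand: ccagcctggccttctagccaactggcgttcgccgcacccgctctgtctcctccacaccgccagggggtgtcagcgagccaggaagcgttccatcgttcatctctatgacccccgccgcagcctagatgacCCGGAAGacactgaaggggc
Ndufb11, chrX:20617620-20617769, minus strand: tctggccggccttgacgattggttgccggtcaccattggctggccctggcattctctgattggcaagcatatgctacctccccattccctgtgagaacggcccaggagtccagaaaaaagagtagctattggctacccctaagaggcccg

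Over the whole windows the NRF1 letters were in 8 of the 39 members' promoters (20.5%), against 14.5% of the 10252 tested genes with a promoter in the table and 7.03% of all 27025 promoters. Those 8 genes were Ndufa5, Ndufa6, Ndufa8, Ndufs5, Ndufb4, Ndufb10, Ndufaf4 and Ndufaf5. Ndufb4 held 3 such matches, Ndufa5 and Ndufa8 held 2 each, and Ndufaf4 and Ndufaf5 held 2 each that overlap by all but 1 base, 1 on each strand. Matches were counted over all windows of a gene. Those of Ndufa5, which had 2 windows, may lie in different windows or be 1 site counted from 2 starts. The GABP letters were in 6 members' promoters (15.4%), those of Ndufs3, Ndufs8, Ndufb6, Ndufb7, Ndufaf1 and Ndufaf8, against 19.3% of tested genes and 9.93% of all promoters. The letters AAGATGGCG of YY1 stood in 5 members' promoters (12.8%), against 3.41% of tested genes and 1.64% of all. They began between base 11 and base 36 counted from the start in Ndufs4, Ndufa9, Ndufs7, Ndufc1 and Ndufaf8. The ESRRA letters TGACCTTG were in the Ndufs5 promoter alone (2.56%), against 1.42% of tested genes. No match overlapped a match of another motif in a member's promoter. Of genes lower at day 14 than in control, described next, 6 of 34 with a promoter had the NRF1 letters, and of genes that did not pass that test 2 of 5 had them. For the GABP letters these counts were 6 of 34 and 0 of 5, for YY1 5 of 34 and 0 of 5, and for ESRRA 1 of 34 and 0 of 5. These matches are descriptions of sequence and were not tested.

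The arrays of a group correlated at 0.994 to 0.997 over the genes tested, day 14 arrays correlated with control arrays at 0.965 to 0.981, and day 7 arrays with control arrays at 0.990 to 0.995. Of 9 listed LKS markers 7 were measured, and 0 of the 7, among them Kit, Cd34 and Flt3, passed the test against control at day 14 or day 7 (limma; at an unadjusted p below 0.05, 0 at day 14 and 2 lower at day 7). Over all genes tested, 52.4% passed at day 14 and 3.34% at day 7. Median array intensity ran from 23.4 to 24.2, but the 75th percentile was 115 to 119 in day 14 arrays and 127 to 130 in the others, so the split of calls between higher and lower depends on how arrays are scaled. Values are normalized intensities on a linear scale, and each compares arrays for 1 probe set, not genes with each other.

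At day 14, Nduf genes were lower than in control almost throughout. Of the 44, which include Ndufa4 and Ndufa4l2, 37 (84.1%) fell, 0 rose, and 7 did not pass the test. The test was limma with a Benjamini-Hochberg adjusted p below 0.05 over all genes tested. At an unadjusted p below 0.05, 0 were higher and 37 lower. The background was high, since 34.1% of all genes tested fell and 18.3% rose, 52.4% in all. Unadjusted p-values below 0.05 (limma) gave 4709 lower and 2714 higher of the 12652 genes tested. Of all calls 65.1% were lower, which became 54.9% with quantile normalization and 42.6% with arrays set to the same 75th percentile, while the Nduf genes called were then 36 lower and 0 higher, and 33 lower and 1 higher. The 34 subunits had a median log2 change of -0.35, with 28 lower, and the 8 assembly factors had a median of -0.55, with all 8 lower, beside a median of -0.06 over all genes tested. With equal 75th percentiles these medians were -0.23 for subunits, 25 of them lower, -0.43 for assembly factors and 0.06 over all genes tested. In 37 of the 44 genes all 3 day 14 arrays lay below all 3 control arrays, against 37.3% of genes tested, and in 0 of the 44 did all lie above, against 20.8%. The log2 difference was below 0 in 42 of the 44, against 57.2% of genes tested, and above 0 in Ndufa6 and Ndufa4l2 (2 of 44, against 42.8%). In bulk RNA of sorted cells, fewer cells of a type and less RNA per cell cannot be told apart.

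**Figure D1:**
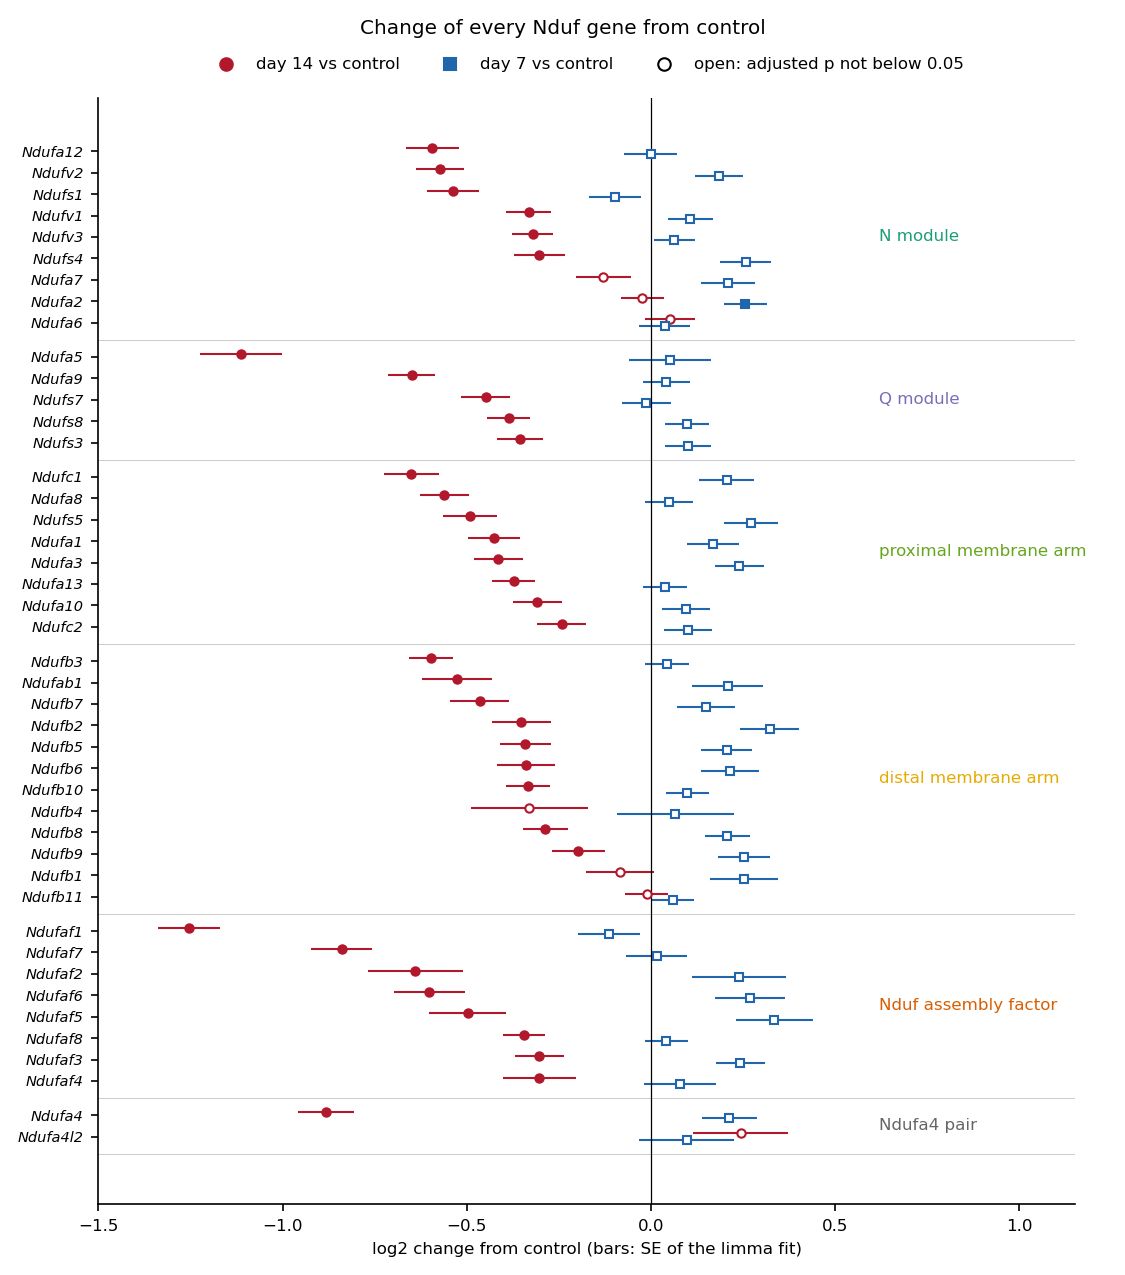
Log2 change of every Nduf gene at day 14 (red circles) and at day 7 (blue squares) from control, 3 arrays per group, with bars of 1 SE from the limma fit and open symbols where the adjusted p is not below 0.05. Nearly all red symbols lie left of 0, between -1.25 for Ndufaf1 and 0.24 for Ndufa4l2, while the blue symbols lie between -0.11 and 0.33.

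The Q module, where ubiquinone is reduced, fell in all 5 measured members, with log2 changes from -1.11 to -0.36. Ndufa5, an accessory subunit that enters the complex early in assembly, had intensities of 147, 155 and 176 in day 14 cells, 358, 371 and 339 in day 7 cells and 344, 401 and 293 in control cells. Every day 14 array lay below every other array, and the level was 2.16-fold lower than in control (log2 change -1.11, SE 0.11, adjusted p = 4.2e-05, limma). Ndufa9, an accessory subunit where the matrix arm meets the membrane arm, read 637, 673 and 695 in day 14 cells, 1046, 1087 and 1099 in day 7 cells and 1091, 1066 and 987 in control cells. Day 14 cells were again below all others, 1.57-fold lower than control (SE 0.06 on a log2 change of -0.65). Ndufs7, the core subunit that carries the last iron-sulfur cluster before ubiquinone, read 924, 884 and 909 in day 14 cells, 1241, 1290.3 and 1147 in day 7 cells and 1201, 1309 and 1200.3 in control cells. It fell 1.36-fold against control (adjusted p = 0.00039, limma). Its core neighbour Ndufs8, another iron-sulfur protein, read 1630.2, 1628 and 1779 in day 14 cells, 2352, 2365 and 2321 in day 7 cells and 2251, 2164 and 2164 in control cells. That was 1.31-fold lower at day 14 than in control, and the groups did not overlap. Ndufs3, a core subunit of the Q module, had intensities of 601, 572 and 629 in day 14 cells, 782, 836 and 855 in day 7 cells and 764, 782 and 759 in control cells, a log2 change of -0.36 (SE 0.06) at day 14.

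In the N module, which binds and oxidises NADH, 6 of 9 measured members fell at day 14, and Ndufa7, Ndufa2 and Ndufa6 did not pass. The flavoprotein Ndufv1, which binds NADH, read 897, 896 and 879.6 in day 14 cells, 1239.5, 1255 and 1132 in day 7 cells and 1155, 1112 and 1098 in control cells. It was 1.26-fold lower at day 14 than in control (adjusted p = 0.0013, limma). Ndufv2, its iron-sulfur partner, read 837, 873 and 932 in day 14 cells, 1433, 1487 and 1539.6 in day 7 cells and 1329, 1354 and 1244 in control cells. Here the day 14 arrays were lowest, the day 7 arrays highest, and no group overlapped another; the fall from control was 0.57 on the log2 scale (SE 0.07). Ndufs1, the largest core subunit and a carrier of several iron-sulfur clusters, read 322, 356 and 377 in day 14 cells, 492, 479.8 and 457 in day 7 cells and 509, 522 and 498 in control cells. Its log2 change was -0.54 (SE 0.07). The accessory subunit Ndufa12, a relative of the assembly factor Ndufaf2 that takes its place late in assembly, read 1435, 1540.3 and 1504 in day 14 cells, 2283, 2278 and 2193 in day 7 cells and 2167, 2487 and 2119.8 in control cells. Day 14 cells had 1.51-fold less than control. The accessory subunits Ndufv3 and Ndufs4 fell by 0.32 and 0.30, and with equal 75th percentiles Ndufs4 was at -0.18 and did not pass (adjusted p = 0.055, limma). Ndufa6, an accessory subunit that anchors the acyl carrier protein Ndufab1, read 1312, 1294 and 1368 in day 14 cells, 1261, 1255 and 1422 in day 7 cells and 1309, 1216 and 1309 in control cells. Its groups overlapped, and the difference at day 14, 0.05, had a 95% interval of -0.10 to 0.20. For Ndufa2 and Ndufa7 the differences were -0.02 (95% interval -0.15 to 0.11) and -0.13 (-0.29 to 0.04).

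The 6 measured core subunits, Ndufv1, Ndufv2, Ndufs1, Ndufs3, Ndufs7 and Ndufs8, all fell at day 14, with a median log2 change of -0.42, and 22 of the 28 accessory subunits fell, with a median of -0.34.

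All 8 measured subunits of the proximal membrane arm fell at day 14, by 0.24 to 0.65 on the log2 scale. Ndufc1, a small membrane subunit, read 707, 744 and 754 in day 14 cells, 1422, 1308 and 1266 in day 7 cells and 1149, 1252 and 1069 in control cells. Day 14 cells were lowest, 1.57-fold below control (adjusted p = 9.1e-05, limma). Ndufa8, a subunit on the intermembrane space side with paired cysteine motifs, read 759, 743 and 845 in day 14 cells, 1161, 1179 and 1235 in day 7 cells and 1136, 1187 and 1134 in control cells. It fell by 0.56 (SE 0.07). Ndufs5, which lies on the same side of the membrane and whose promoter is printed above, read 165, 181 and 177 in day 14 cells, 290.3, 297 and 301 in day 7 cells and 263, 254 and 222 in control cells. The 3 groups were separate, with day 14 lowest and day 7 highest, and the level was 1.41-fold lower at day 14 than in control. Ndufa1, an X-linked subunit whose human form is mutated in complex I deficiency, read 1391, 1388 and 1509 in day 14 cells, 2142, 2171 and 2162 in day 7 cells and 2077, 1918 and 1775 in control cells. The day 14 level was 1.34-fold lower than in control. Ndufa3, Ndufa13, Ndufa10 and Ndufc2 fell by 0.41, 0.37, 0.31 and 0.24. Ndufa3 was at -0.079 with the mean of its probe sets and did not pass (adjusted p = 0.37, limma), and Ndufc2 was at -0.12 with equal 75th percentiles and did not pass (0.12).

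In the distal membrane arm, 9 of 12 subunits fell at day 14. Ndufb3, an accessory membrane subunit, read 561, 594 and 615 in day 14 cells, 922, 946 and 885 in day 7 cells and 896, 889.7 and 886 in control cells. That was 1.51-fold lower than control, with no overlap (adjusted p = 4.2e-05, limma). Ndufab1, the mitochondrial acyl carrier protein, which also serves mitochondrial fatty acid synthesis, read 836, 823 and 1007 in day 14 cells, 1468, 1475 and 1472 in day 7 cells and 1294, 1404 and 1139 in control cells. Its log2 change was -0.53 (SE 0.10). Ndufb7, a subunit with paired cysteine motifs on the intermembrane space side, read 769, 822 and 907 in day 14 cells, 1291, 1285 and 1239 in day 7 cells and 1211, 1186 and 1051 in control cells. The 3 groups were separate, and day 14 was 1.38-fold below control. Ndufb2 read 406, 389 and 391 in day 14 cells, 621, 647 and 623 in day 7 cells and 497, 568 and 454 in control cells. It fell by 0.35 (SE 0.08). Ndufb5, Ndufb6, Ndufb10, Ndufb8 and Ndufb9 fell by 0.34, 0.34, 0.33, 0.29 and 0.20. Ndufb9 was the weakest of these calls (adjusted p = 0.039, limma): its adjusted p was 0.12 when control array 1 was omitted and 0.11 when control array 2 was. Omitting day 7 array 2 gave 0.058, and omitting day 14 array 1 or 2 gave 0.077 or 0.11. With equal 75th percentiles its log2 change was -0.076 (adjusted p = 0.41), and with the mean of its probe sets -0.10 (0.16). Ndufb6 with the mean of its probe sets was at -0.24 and did not pass (adjusted p = 0.072).

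The distal subunits that did not pass were Ndufb11, Ndufb1 and Ndufb4. Ndufb11, an X-linked subunit of the distal arm, read 2792, 2655 and 2820.3 in day 14 cells, 2917, 2902 and 2859 in day 7 cells and 2820.3, 2652 and 2862 in control cells. Day 14 and control arrays overlapped, and the difference of -0.01 had a 95% interval of -0.14 to 0.12. Ndufb1 read 134, 138 and 128 in day 14 cells, 168, 153 and 185 in day 7 cells and 153, 147 and 126 in control cells. Its difference at day 14 was -0.08 (-0.29 to 0.12). Ndufb4 was read by a dim probe set, above the 40th percentile of the array in 7 of 9 arrays where every other member was above it in all 9, with 13.6, 12.7 and 17.8 in day 14 cells, 17.1, 23.3 and 17.5 in day 7 cells and 21.4, 16.3 and 17.5 in control cells. Its difference was -0.33 (-0.68 to 0.02), and without day 14 replicate 3 it was -0.48 with an adjusted p of 0.029.

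All 8 Nduf assembly factors fell at day 14. Ndufaf1, which joins Ecsit, Acad9 and Tmem126b in building the membrane arm, read 117, 140.2 and 132 in day 14 cells, 282, 293 and 279 in day 7 cells and 293, 340.2 and 293 in control cells. Its day 14 arrays lay far below all others, 2.39-fold below control, the largest change among the 44 genes (log2 change -1.25, SE 0.08, adjusted p = 6.4e-06, limma). Ndufaf7, a methyltransferase of early complex I assembly, read 74.9, 94.5 and 82.7 in day 14 cells, 147, 157 and 150.1 in day 7 cells and 147, 153 and 149 in control cells. It was 1.79-fold lower at day 14 than in control, where day 7 and control arrays overlapped. Ndufaf2, the late factor related to Ndufa12, read 76.0, 83.7 and 93.4 in day 14 cells, 151, 157 and 156 in day 7 cells and 131, 159.7 and 107 in control cells. Control arrays spread more than those of either leukemic group here, and day 14 lay 1.56-fold below them (SE 0.13 on a log2 change of -0.64). Ndufaf6, a factor of early assembly, read 98.5, 110.2 and 118 in day 14 cells, 200, 193 and 203 in day 7 cells and 181, 172 and 144 in control cells. The 3 groups were separate and day 14 was lowest, 1.52-fold below control. Ndufaf5, which hydroxylates Ndufs7, and its partner Ndufaf8 fell by 0.50 and 0.34. Ndufaf3 and Ndufaf4, which bind each other and the early Q module, each fell by 0.30. The call of Ndufaf4 (adjusted p = 0.026, limma) was lost when control array 2 was omitted (0.088), and likewise with day 14 array 1 (0.087) or 2 (0.059) omitted. It was also lost with equal 75th percentiles (-0.18, adjusted p = 0.11), without the filter on dim probe sets (0.066) and with only the 2 groups compared (0.055), and that of Ndufaf3 with quantile normalization (-0.18, adjusted p = 0.056).

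**Figure D2:**
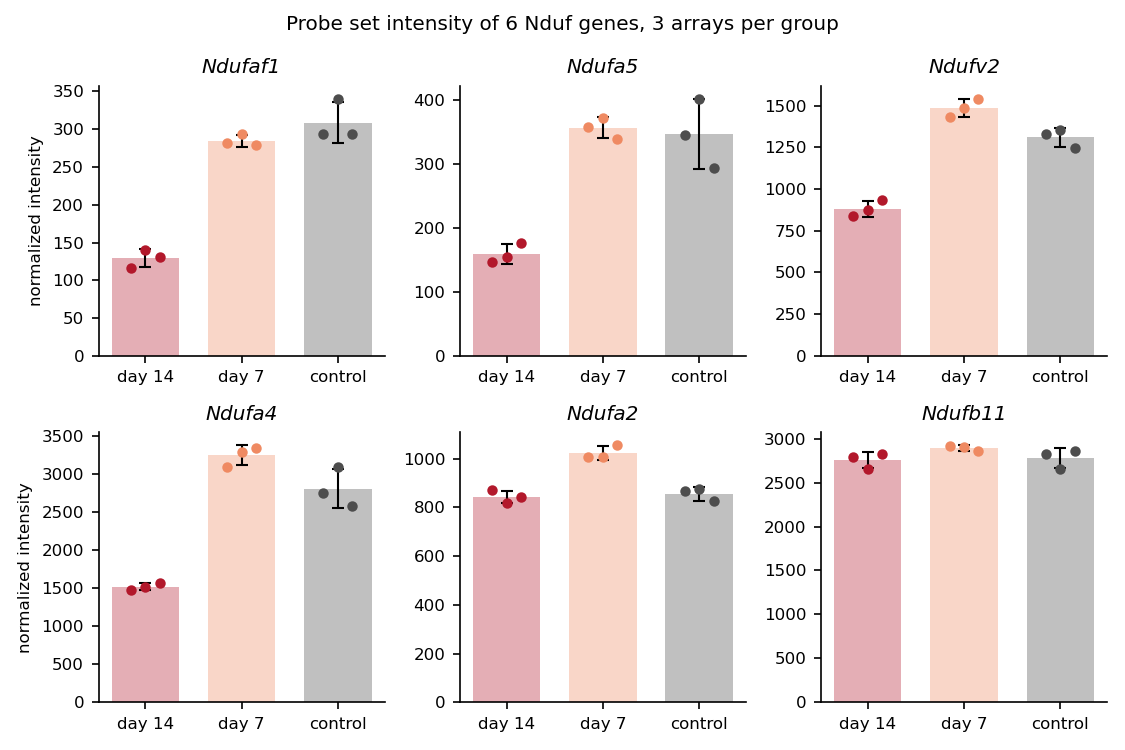
Normalized intensity (linear axis from 0) of Ndufaf1, Ndufa5, Ndufv2, Ndufa4, Ndufa2 and Ndufb11 in each array at day 14, at day 7 and in control; bars are means and error bars the SD of 3 arrays. The first 4 genes are lowest at day 14, Ndufa2 is highest at day 7, and the Ndufb11 bars of the groups are close to each other.

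Ndufa4, which belongs to complex IV, fell at day 14 as well. It read 1474, 1513 and 1568 in day 14 cells, 3093, 3291 and 3344 in day 7 cells and 2748, 3086 and 2581 in control cells, 1.84-fold lower at day 14 than in control (adjusted p = 1.8e-05, limma). Its relative Ndufa4l2, known to be induced by hypoxia, was dim, with 34.7, 33.0 and 43.9 in day 14 cells, 32.5, 35.7 and 32.1 in day 7 cells and 33.0, 35.2 and 26.1 in control cells. The groups overlapped, and the difference of 0.24 at day 14 (-0.04 to 0.53) did not pass; with arrays set to the same 75th percentile it was 0.36 with an adjusted p of 0.034.

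Other probe sets of the same genes gave a further reading that the choice of the brightest did not use, in a limma fit of the 23263 tested probe sets with its own adjustment. In that fit 36 of the 44 probe sets that stand for a gene were lower at day 14, without Ndufb9 (adjusted p = 0.051). The Nduf genes had 88 probe sets with a single symbol, and 22 genes had more than 1. Of 42 tested probe sets that did not stand for their gene, 23 were lower at day 14 than in control, 2 were higher and 17 did not pass. Both higher ones were dim, a probe set of Ndufa3 (log2 change 0.55, mean intensity 34.7) and one of Ndufs4 (0.42, mean intensity 35.8). Among the 31 with a mean intensity of at least 100, in 19 genes, 21 were lower, 0 were higher and 10 did not pass. The share of all probe sets called in that fit, at day 14 or day 7, is not given here. Counts from it therefore have no background of their own. In the gene fit, 34.1% of genes tested were lower at day 14 and 18.3% higher. The second probe set of Ndufa5 gave -1.10, close to the first. Of the 37 genes called, 5 had other tested probe sets of which none passed, so their calls rest on 1 probe set. Ndufb5 and Ndufb6 had bright ones at -0.07 and -0.14, and Ndufb9 had a bright one at -0.15 (adjusted p = 0.099) and a dim one at 0.04. Ndufa10 and Ndufb8 had dim ones at -0.32 (adjusted p = 0.054) and -0.11 (0.22). The calls of genes with a single probe set rest on 1 as well. Among them are Ndufaf1, Ndufaf2, Ndufaf3, Ndufaf5, Ndufaf6 and Ndufaf7, and Ndufa4. The subunits among them are Ndufa1, Ndufa8, Ndufa9, Ndufa13, Ndufb3, Ndufb10, Ndufs1, Ndufs3, Ndufs5 and Ndufv3. Ndufa7 was read by 5 probe sets and none passed, and none of the 3 probe sets of Ndufb11 passed. For 9 members, Ndufa12, Ndufv1, Ndufa2, Ndufs8, Ndufa3, Ndufa13, Ndufc2, Ndufab1 and Ndufaf7, the probe set is of a kind that may also match other transcripts.

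**Figure D3:**
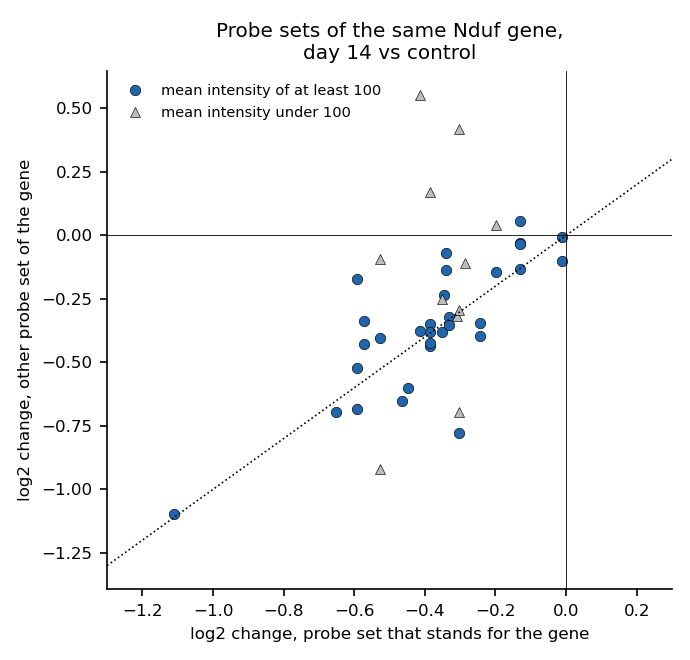
Log2 change at day 14 from control of 42 further Nduf probe sets (vertical axis) against that of the probe set that stands for the gene (horizontal axis), with the dotted line of equal change. Blue circles, with a mean intensity of at least 100, lie below 0 in 30 of 31 cases, against 57.2% of genes in the gene fit. Grey triangles are dimmer probe sets and include both that were higher.

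At day 7 the same genes lay slightly above control, within a range that the test seldom passed. Among the 44, only Ndufa2, an accessory subunit of the N module, rose: it read 1006, 1008 and 1055 in day 7 cells, against 867, 877 and 824 in control cells, with no overlap (log2 change 0.26, SE 0.06, adjusted p = 0.044, limma). None of the 44 fell, and over all genes tested 2.21% rose and 1.13% fell, 3.34% in all, so 1 of 44 (2.27%) was near the background. At an unadjusted p below 0.05, 18 Nduf genes were higher and 0 lower, against 1512 higher and 999 lower of the 12652 genes tested. The call of Ndufa2 was kept in 5 of 18 alternatives, and its adjusted p was 0.10, 0.051 and 0.14 when control arrays 1, 2 and 3 were omitted in turn. Omitting day 7 arrays 1, 2 and 3 gave 0.11, 0.12 and 0.15, and omitting day 14 arrays 2 and 3 gave 0.058 and 0.061.

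The direction at day 7 was nonetheless shared by most members. The log2 difference from control was above 0 in 40 of 44 genes, against 54.1% of all genes tested, with medians of 0.10 for subunits and 0.16 for assembly factors, beside 0.01 over all genes. All 3 day 7 arrays lay above all 3 control arrays in 23 of the 44 (52.3%), against 15.2% of genes tested, and below them in Ndufs1 alone, against 11.3%. Among the 23 were 9 of the 12 distal and 5 of the 8 proximal membrane arm subunits, but 1 of the 5 Q module subunits. The largest differences that did not pass were those of Ndufaf5, with 128, 124 and 134 in day 7 cells, against 102, 109.9 and 94.0 in control cells (log2 difference 0.33, adjusted p = 0.11, limma), and of Ndufb2, with 0.32 (adjusted p = 0.057). Ndufb2 passed without control replicate 2, where it was 0.41 with an adjusted p of 0.016, and also with the 60th percentile filter (0.038) and the trended robust prior (0.027). In the fit of all probe sets, 1 of the 42 others was higher at day 7, the second probe set of Ndufb2 (0.38, adjusted p = 0.040, limma), and 1 was lower, a dim one of Ndufab1 (-0.87). There the probe set that stands for Ndufb2 had an adjusted p of 0.062 and that of Ndufa2 0.053. The 4 differences below 0 (45.9% of all genes tested) were those of Ndufaf1 (-0.11), Ndufs1 (-0.10), Ndufs7 (-0.01) and Ndufa12 (-0.00 after rounding).

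Against day 7, day 14 cells had lower levels of 40 of the 44 Nduf genes and higher levels of 0 (0 higher and 41 lower at an unadjusted p below 0.05), where 33.6% of all genes tested were lower and 17.4% higher, 51.0% in all. This contrast also tests whether the change from control differs between the days. The calls comprised 31 of 34 subunits, with a median log2 change of -0.49, and 8 of 8 assembly factors, with a median of -0.84, beside -0.06 over all genes tested. In 41 of the 44 the day 14 arrays all lay below the day 7 arrays, against 38.6% of genes tested, and in 0 did all lie above, against 21.7%. The log2 difference was below 0 in 42 of the 44, against 57.1% of genes tested, and above 0 in the other 2, against 42.9%. Ndufa6, Ndufb11, Ndufb4 and Ndufa4l2 did not pass, though Ndufb11 did with the mean of its probe sets (-0.15, adjusted p = 0.046, limma) and Ndufb4 with quantile normalization (-0.46, 0.033) and when control array 1 (-0.40, 0.0496) or day 14 array 3 (-0.54, 0.017) was omitted. Of all calls 65.9% were lower, against 56.0% with quantile normalization and 42.2% with equal 75th percentiles, under which 40 and 38 Nduf genes were lower and 0 higher.

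The largest differences between the days were those of Ndufa5 (-1.16, SE 0.11), Ndufaf1 (-1.14, SE 0.08) and Ndufa4 (-1.09, SE 0.07). Among assembly factors Ndufaf2, Ndufaf6 and Ndufaf7 followed, with -0.88, -0.87 and -0.85. Within the membrane arm Ndufc1, Ndufs5, Ndufa3 and Ndufa8 of the proximal part had -0.86, -0.76, -0.65 and -0.61, and Ndufab1, Ndufb2, Ndufb3 and Ndufb7 of the distal part had -0.73, -0.67, -0.64 and -0.61. Ndufa3, a small membrane subunit, read 1312, 1315 and 1392 in day 14 cells, against 2015, 2122 and 2188 in day 7 cells. No value overlapped, and the fall was 1.57-fold (adjusted p = 4.5e-05, limma). In the N module the order was Ndufv2 (-0.76), Ndufa12 (-0.59), Ndufs4 (-0.56) and Ndufs1 (-0.44). Ndufs4, an accessory subunit whose loss in mice gives a model of Leigh syndrome, read 259.7, 246 and 279.7 in day 14 cells, 370.5, 388 and 398 in day 7 cells and 326, 337 and 305 in control cells. Its 3 groups were separate, with day 14 lowest and day 7 highest. In the Q module Ndufa9, Ndufs8 and Ndufs3 had -0.69, -0.48 and -0.46. Subunits that had not passed against control fell here too: Ndufa7 by 0.34, Ndufa2 by 0.28 and Ndufb1 by 0.34, the last read as 134, 138 and 128 in day 14 cells, against 168, 153 and 185 in day 7 cells. With equal 75th percentiles Ndufa2 was at -0.15 (adjusted p = 0.074, limma) and Ndufb1 at -0.20 (0.089), and with quantile normalization Ndufb1 was at -0.20 (0.10).

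Averaged per array, subunits stood at -0.42, -0.40 and -0.32 log2 units from the control mean in day 14 arrays, at 0.12, 0.15 and 0.14 in day 7 arrays and at 0.04, 0.04 and -0.07 in control arrays. Assembly factors averaged -0.73, -0.57 and -0.50 in day 14 arrays, 0.12, 0.13 and 0.16 in day 7 arrays and 0.00, 0.09 and -0.09 in control arrays. The groups did not overlap for either class, but control replicate 3 was the lowest control array for both. All genes tested averaged -0.08, -0.08 and -0.06 at day 14 and 0.02 in each day 7 array.

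**Figure D4:**
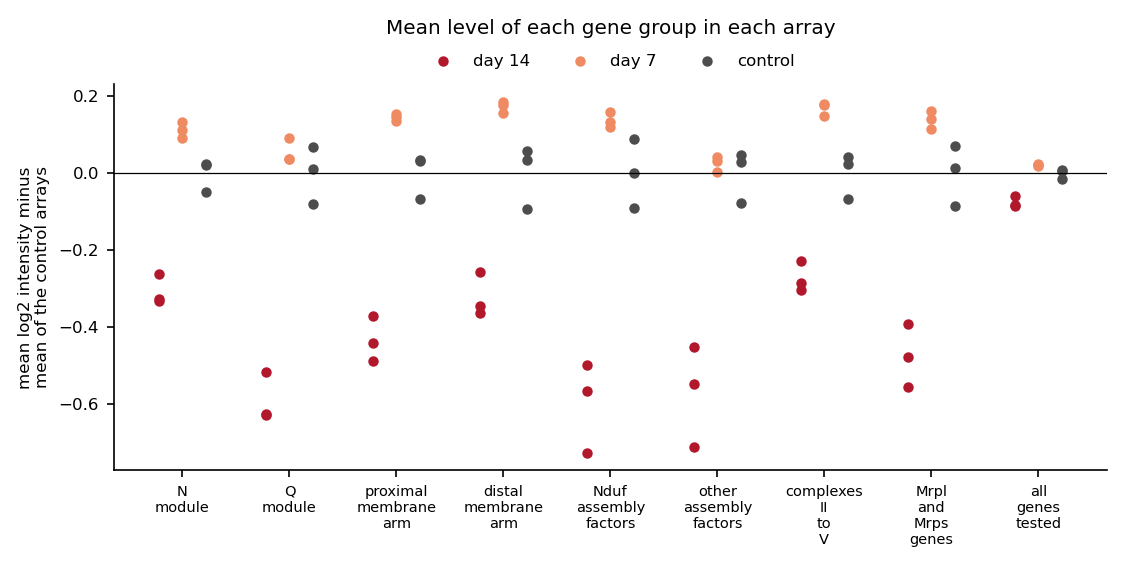
Mean log2 intensity of the genes of each group in each array, minus the mean of the control arrays, at day 14, at day 7 and in control (1 point per array, 3 per group). Day 14 points of every complex I class lie below the others, between -0.73 and -0.26, and the points of all genes tested lie near 0.

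Genes that work with complex I were read the same way. Of 12 listed assembly factors without the Nduf name, 11 were measured, and all 11 fell at day 14 against control, with a median log2 change of -0.55. Over all genes tested, 34.1% fell at day 14, 3.34% passed at day 7 and 33.6% were lower at day 14 than at day 7. Tmem126b, a partner of Ndufaf1, read 11.4, 12.9 and 18.2 in day 14 cells, 23.3, 26.6 and 25.3 in day 7 cells and 31.7, 28.9 and 26.3 in control cells. It was dim at day 14, where 2 of 3 arrays lay below the 40th percentile of the array, and fell by 1.06 (SE 0.15). Ecsit, another partner of Ndufaf1, read 65.2, 73.1 and 72.8 in day 14 cells, 128, 129 and 122 in day 7 cells and 117, 132 and 111 in control cells. That was 1.70-fold lower at day 14 than in control (adjusted p = 4.7e-05, limma). Lyrm2, linked to complex I assembly, fell by 0.74 (SE 0.12), with 116, 134 and 155 in day 14 cells, 193, 226 and 247 in day 7 cells and 252, 214 and 210.0 in control cells. At day 7 none of the 11 passed against control (0 higher and 0 lower by limma; 1 higher and 0 lower at an unadjusted p below 0.05), and all 11 were lower at day 14 than at day 7, Tmem126b by 0.85, Ecsit by 0.84 and Nubpl, which delivers iron-sulfur clusters to the complex, by 0.73.

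ND5, a core membrane arm subunit encoded by mitochondrial DNA, had a probe set under that symbol and was looked at after its values were seen. It read 4374, 4175 and 4131 in day 14 cells, 3492, 3607 and 3951 in day 7 cells and 3986, 4441 and 4225 in control cells. Day 14 and control arrays overlapped, the difference was 0.00 with a 95% interval of -0.15 to 0.16 (adjusted p = 0.96, limma), and the sign turned to -0.094 with quantile normalization, to -0.036 when control array 1 was omitted and to -0.021 when day 14 array 1 was. Against day 7, day 14 was higher by 0.20 (adjusted p = 0.033). That call was lost with quantile normalization (0.10, adjusted p = 0.29), and when day 7 array 1 or 2 or day 14 array 1 or 2 was omitted (0.16, 0.19, 0.18 and 0.21, adjusted p = 0.12, 0.10, 0.094 and 0.058). Of the nuclear-encoded membrane arm subunits, 8 of 8 proximal and 10 of 12 distal ones fell in that contrast, against 33.6% of all genes tested.

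Regulators of mitochondrial genes were mixed: of 12 measured, 8 fell, 1 rose and 3 did not pass at day 14 against control. Over all genes tested, 34.1% fell and 18.3% rose at day 14. The background was 3.34% passing at day 7 and 33.6% lower at day 14 than at day 7. Tfb1m, which modifies the ribosomal RNA of mitochondria, read 136, 152 and 146 in day 14 cells, 252, 259.7 and 249 in day 7 cells and 237, 267 and 237 in control cells. It fell 1.71-fold against control, with day 14 below all other arrays. Ppargc1a, a coactivator of mitochondrial biogenesis, was dim, with 15.4, 15.4 and 13.2 in day 14 cells, 22.7, 23.8 and 18.9 in day 7 cells and 32.0, 27.3 and 28.1 in control cells, and fell by 0.99. Without control replicate 2 or 3 another probe set stood for Ppargc1a and the change was -0.23 in each case, which did not pass (adjusted p = 0.13 and 0.12). Pprc1, a related coactivator, fell by 0.56 (SE 0.11), with 129.9, 148 and 162 in day 14 cells, 188, 183 and 163 in day 7 cells and 192, 246 and 212 in control cells. The factors whose letters were sought in the promoters gave -0.31 for Gabpa and -0.29 for Gabpb1, which fell, -0.13 for Nrf1 and 0.05 for Esrra, which did not pass, and 0.19 for Yy1, which rose. Yy1 read 1652, 1642 and 1559 in day 14 cells, 1479, 1421 and 1438 in day 7 cells and 1444, 1479 and 1331 in control cells, and its call (adjusted p = 0.026, limma) was lost when control array 3 was omitted (0.15, adjusted p = 0.082), and likewise with day 14 array 1 (0.18, 0.067) or 2 (0.18, 0.065) omitted. At day 7 none of the 12 passed against control (1 higher and 2 lower at an unadjusted p below 0.05), and against day 7, 8 were lower at day 14, with Tfb1m at -0.81, Ppargc1a at -0.57 and Polrmt, the mitochondrial RNA polymerase, at -0.48.

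The rest of the respiratory chain and the mitochondrial ribosome lay on the same side. Of 37 measured genes of complexes II to V, 28 (75.7%) fell at day 14 against control, with a median of -0.28. At day 7, 5 (13.5%) rose, and 34 (91.9%) were lower at day 14 than at day 7. Over all genes tested these shares were 34.1%, 2.21% and 33.6%. Of 76 Mrpl and Mrps genes, which encode mitochondrial ribosomal proteins, 67 (88.2%) fell at day 14 with a median of -0.48. At day 7, 1 (1.32%) rose, and 72 (94.7%) were lower at day 14 than at day 7. Of the complex I subunits, 82.4% fell at day 14. At day 7 the median was 0.10 for subunits and 0.16 for Nduf assembly factors. It was 0.18 for complexes II to V and 0.15 for Mrpl and Mrps genes. Between the days the medians were -0.49 for subunits, -0.84 for Nduf assembly factors, -0.48 for complexes II to V and -0.65 for Mrpl and Mrps genes. No difference between these groups of genes was tested.

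**Figure D5:**
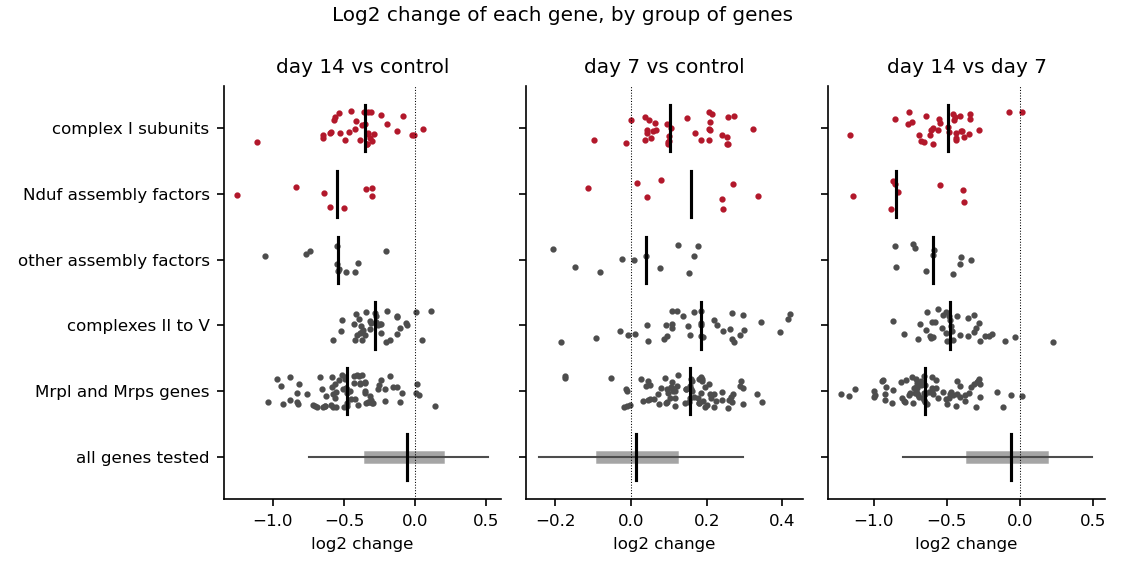
Log2 change of each gene of 5 groups in each of the 3 comparisons, with a black line at each group's median; the bottom row gives all genes tested as the median, the middle 50% (grey bar) and the range of the 5th to 95th percentile (line). Each group's median lies below that of all genes at day 14 and above it at day 7; horizontal scales differ between panels.

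Markers of other states and cell types differed between the groups in some lists, and not all in the same direction. Over all genes tested, 18.3% rose and 34.1% fell at day 14 against control, 52.4% in all, and 2.21% rose at day 7. The summed intensity of 9 cell cycle genes was 6033 to 6649 in day 14 arrays, 12635 to 13794 in day 7 arrays and 9259.9 to 12176 in control arrays, all 9 fell at day 14 and 4 rose at day 7 against control. For 8 megakaryocyte markers it was 1684 to 1968 at day 14, 826 to 885 at day 7 and 664 to 765 in control, and 6 of 8 rose at day 14. For 7 granulocyte and monocyte markers it was 9436 to 12204 at day 14, 7737 to 9755 at day 7 and 6661 to 8512 in control, with 4 of 7 higher at day 14. For 6 B cell markers it was 329 to 426 at day 14, 297 to 362 at day 7 and 246 to 259.6 in control, with 4 higher and 1 lower of 6 tested at day 14. For 6 T and NK cell markers, 4 of them tested, it was 584 to 690.2 at day 14, 892 to 918 at day 7 and 749.8 to 870.1 in control, with 2 higher and 1 lower at day 14. Erythroid Hba-a1, Alas2 and Slc4a1 were below the 40th percentile in all arrays, and 0 of the 2 other erythroid markers tested passed at day 14 (limma; 0 also at an unadjusted p below 0.05). The part of these markers in the Nduf differences was not tested.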

How the data were processed

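Gene expression was measured on 9 Affymetrix mouse arrays, 3 per group, grouped by the sample labels. The deposited values are normalized intensities on a linear scale, 1 per probe set and array. RNA went through 2 cycles of amplification per the series' design text, a step that weights transcripts toward their 3′ ends, and the authors normalized signals with Microarray Analysis Software 5.0; as 51.6% of probe sets, and 13 of the 88 Nduf probe sets, hold equal values in at least 2 arrays, the step is in doubt and the scaling was varied. Precision is limited by the number of arrays. The labels name no batch.

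Gene symbols came from the platform annotation, which gave a single symbol for 34945 of 45037 probe sets, several for 932 and no symbol for 9160. A gene was read by its brightest probe set (mean log2 intensity). The 20th percentile (5.81) served as a floor for lower values, set ahead of the log2 step. Genes above the 40th percentile of the array (14.1 to 15.2) in at least 3 arrays were tested, 12652 of 18193.

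Groups were compared with limma 3.58.1 in R 4.3.3, with 1 model over 9 arrays, no covariates, two-sided moderated tests and Benjamini-Hochberg adjustment over all genes tested; calls have an adjusted p below 0.05. Log2 changes are the first-named group minus the second, folds are taken from them, and intervals cover 95%. The steps were tested on simulated data. Alternatives were quantile normalization, equal 75th percentiles, no floor, no filter, a 60th percentile filter, averaging all probe sets of a gene, a trended robust variance prior, fitting only the 2 groups compared, a block for the replicate number, and omitting each array in turn. Replicate numbers did not pair arrays: correlations of same-numbered deviations ran from -0.19 to 0.12.

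Members and lists were chosen with earlier results of these data known, so lists are described by counts and medians. Named by rule were, per comparison and class, up to 4 called Nduf genes per direction with the largest changes, Ndufa4 and Ndufa4l2, and up to 3 called genes per direction of the other assembly factors and the regulators; other members are named with their changes, and ND5 was added after its values were seen.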

Additional observations from a re-analysis of the deposited data

Results flagged for a closer look

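The change from control differed between day 14 and day 7 for most complex I genes, by the contrast of the days in the limma fit (adjusted p below 0.05 over all genes tested), in 31 of 34 subunits and 8 of 8 Nduf assembly factors. Each difference is the log2 change at day 14 minus that at day 7, and negative values mean lower at day 14. In the N module it was -0.76 for Ndufv2, -0.59 for Ndufa12, -0.56 for Ndufs4 and -0.44 for Ndufs1. In the Q module it was -1.16 for Ndufa5, -0.69 for Ndufa9, -0.48 for Ndufs8 and -0.46 for Ndufs3. Proximal membrane arm subunits differed by -0.86 (Ndufc1), -0.76 (Ndufs5), -0.65 (Ndufa3) and -0.61 (Ndufa8), and distal ones by -0.73 (Ndufab1), -0.67 (Ndufb2), -0.64 (Ndufb3) and -0.61 (Ndufb7). The assembly factors Ndufaf1, Ndufaf2, Ndufaf6 and Ndufaf7 differed by -1.14, -0.88, -0.87 and -0.85, and Ndufa4 by -1.09. Outside the Nduf genes, Tmem126b differed by -0.85, Ecsit by -0.84, Nubpl by -0.73, Tfb1m by -0.81, Ppargc1a by -0.57 and Polrmt by -0.48. The mitochondrially encoded ND5 differed the other way, by 0.20. Ppargc1a lost this call without control replicate 2 or 3, with -0.24 in each case, and the alternatives under which ND5 lost it are given above. Of all genes tested, 51.0% differed between the days.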

How the results depend on the processing

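Of the calls of single Nduf genes, 30 of 37 at day 14 and 38 of 40 between the days held under all 18 alternatives, and 0 of 1 at day 7. At day 14, Ndufa3 (-0.08) and Ndufb6 (-0.24) lost theirs with the mean of probe sets, Ndufaf3 (-0.18) with quantile normalization, Ndufc2 (-0.12) and Ndufs4 (-0.18) with equal 75th percentiles, and Ndufaf4 and Ndufb9 under 6 and 9 alternatives. Between the days, Ndufa2 (-0.15) and Ndufb1 (-0.20) lost theirs with equal 75th percentiles, Ndufb1 (-0.20) also with quantile normalization. The cause was not tested.

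Quantile normalization moved the assembly factor median to -0.43 at day 14 and -0.72 between the days. Equal 75th percentiles moved the median of all genes tested to 0.06 at day 14. The medians of subunits and assembly factors moved to -0.23 and -0.43 at day 14 and to -0.36 and -0.71 between the days. Apart from values at the floor, this scaling shifts all log2 changes of a comparison alike. The subunit median minus that of all genes, -0.29 at day 14, was therefore bound to stay the same and is no check. The mean of probe sets gave -0.42 for subunits between the days. The count of subunits higher at day 7 was 0 with quantile normalization, equal 75th percentiles, no filter or only the 2 groups compared, 2 with the 60th percentile filter or the mean of probe sets, and 6 with the trended robust prior. Over all genes, calls at day 7 numbered 423, against 59 without the filter. Leaving out 1 array gave 0 to 1 for that count, day 7 medians of 0.090 to 0.15 (subunits) and 0.075 to 0.17 (assembly factors), and medians between the days of -0.53 to -0.47 and -0.89 to -0.75. ND5 at day 14 turned to -0.094 (quantile normalization) and ran from -0.036 to 0.042 over the omissions of 1 array, below 0 when control array 1 or day 14 array 1 was omitted. Ndufa4l2 at day 7 ran from -0.032 to 0.18, below 0 when control array 3 was omitted.

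With the replicate number as a block, 27 subunits were lower at day 14, 0 were higher at day 7 and 31 were lower between the days; Ndufa2 at day 7 (adjusted p = 0.091), Ndufb9 at day 14 (0.069) and ND5 between the days (0.054) lost their calls (limma). The numbers do not pair the arrays.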
